A study of Mus musculus with 12 samples.

Results

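The 10 genes described here, Sox17, Sox18, Pecam1, Cdh5, Kdr, Tie1, Tek, Vwf, Emcn and Egfl7, are markers of endothelial cells, the cells that line blood vessels. They were taken by symbol from the 55348 genes of the count tables, and all 10 passed the filter on low counts with 19052 genes in all. Their levels were measured by RNA sequencing at postnatal day 21 in mouse organ of Corti, where the cochlea houses its hair cells. The 4 genotypes, with 3 libraries each and 12 in all, were wild-type, Clrn1-/-, Clrn2-/- and Clrn1-/-Clrn2-/-. Clarin-1 and clarin-2 are tetraspan-like membrane proteins of hair cells whose loss causes deafness. The Clrn1-/- mice carried a constitutive deletion of exon 4 of Clrn1 made with PGK-cre, the Clrn2-/- mice carried clarinet, a nonsense allele, and the double mutants came from crossing these lines. Wild-type mice came from separate breedings, so breeding and genotype cannot be told apart in a comparison with wild-type. The stria vascularis, a vessel-rich tissue of the cochlear wall, and the modiolus had been dissected away.

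Endothelial cells hold together through VE-cadherin and PECAM-1 at their junctions, and they sense vascular growth factors through receptor tyrosine kinases. Vascular endothelial growth factor signals through the receptor encoded by Kdr, and the angiopoietins signal through the receptor encoded by Tek, with Tie1 as its partner. Transcription factors of the SOX F group, to which Sox17 and Sox18 belong, and of the ETS family set up the endothelial programme. In the cochlea, capillaries run in the lateral wall, in the spiral limbus and beneath the basilar membrane, whereas the sensory epithelium itself holds no vessels.

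Library depth on genes was 30008679 to 41049302 counts, and the 10 genes had between 188 counts (Sox18) and 4022 counts (Emcn) in a library. Levels are given in CPM, the counts scaled to a common library size after TMM normalization, with mean ± SD over the 3 libraries of a genotype. A call, over- or under-expressed, required at least a 1.5-fold change and an adjusted p no higher than 0.05 (edgeR's quasi-likelihood test, Benjamini-Hochberg over all 19052 genes). Mice of more than 1 litter were used per genotype, but the sources do not tie single libraries to single animals, so that p-values measure only the spread between these libraries. As a check of the labels, the mean of Clrn1 was 25.8 ± 2.47 CPM in wild-type, 28.8 ± 2.83 in Clrn2-/-, 2.83 ± 0.184 in Clrn1-/- and 2.30 ± 0.482 in the double mutants. Clrn2 was at 2.72 ± 0.727 CPM in wild-type, 0.916 ± 0.107 in Clrn1-/- mutants, 1.23 ± 0.172 in Clrn2-/- and 1.08 ± 0.138 in the double mutants. Clrn1 thus separated the libraries with and without the Clrn1 deletion, whereas Clrn2 was below wild-type in all 3 mutants and checks no label that tells them apart. In whole tissue, fewer endothelial cells and less RNA per endothelial cell cannot be told apart.

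The promoters of 3 of the genes are shown, those of Emcn and Tek because they differed between mutants and that of Kdr as another receptor gene to set beside Tek. Each sequence is the 250 bases before the RefSeq transcription start on the GRCm38.p6 build, read 5′ to 3′ on the strand of the gene. Capitals mark GGAAG on either strand, the core of many binding sites of ETS factors. Emcn lies on the plus strand at chr3:137340828-137341077, Tek on the plus strand at chr4:94739039-94739288 and Kdr on the minus strand at chr5:75978456-75978705.
Emcn: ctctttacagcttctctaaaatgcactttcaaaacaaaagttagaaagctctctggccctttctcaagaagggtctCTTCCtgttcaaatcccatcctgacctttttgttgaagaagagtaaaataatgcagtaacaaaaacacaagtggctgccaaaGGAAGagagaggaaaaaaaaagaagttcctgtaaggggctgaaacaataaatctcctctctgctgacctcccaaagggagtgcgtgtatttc
Tek: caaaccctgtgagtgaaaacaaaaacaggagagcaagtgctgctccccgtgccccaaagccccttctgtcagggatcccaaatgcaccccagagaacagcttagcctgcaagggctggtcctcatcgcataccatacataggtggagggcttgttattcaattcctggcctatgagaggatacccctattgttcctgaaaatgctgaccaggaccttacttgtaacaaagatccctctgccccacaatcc
Kdr: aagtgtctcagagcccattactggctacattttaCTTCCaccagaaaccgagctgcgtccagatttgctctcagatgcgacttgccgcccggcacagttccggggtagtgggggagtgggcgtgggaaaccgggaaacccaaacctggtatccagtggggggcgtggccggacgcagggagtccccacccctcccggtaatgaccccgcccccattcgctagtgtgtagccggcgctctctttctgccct
The Emcn window held GGAAG 2 times, with the first base 174 and 92 bases before the start. The Kdr window held it 1 time, 216 bases before the start, and the Tek window did not hold it. AACAAT, a core that SOX factors recognise, was searched on both strands as well and lay 50 bases before the start of Emcn and 63 bases before that of Tek, without overlap with GGAAG. Of all 32851 windows of this length, 64.1% held GGAAG and 9.42% held AACAAT, so the first is common. RefSeq windows matched 5 of the 10 genes, Emcn, Tek, Kdr, Tie1 and Egfl7, with 7 windows in all, of which 5 held GGAAG and 2 held AACAAT. The letters AGATAA of GATA factors, found in 9.99% of all windows, and the TATA box TATAAA, found in 12.4%, were in 0 of the 7.

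In wild-type mice all 10 genes were expressed, Emcn and Cdh5 most. In FPKM, which corrects CPM for exon length, Emcn, which encodes the surface mucin endomucin of capillaries and veins, was at 12.5 ± 1.47 and Cdh5, which encodes VE-cadherin, was at 11.7 ± 2.16. Pecam1 at 5.06 ± 0.949, Tie1 at 4.81 ± 0.452, Sox18 at 4.77 ± 0.636 and Tek at 4.73 ± 0.358 FPKM followed. Below them stood Egfl7 at 4.09 ± 0.192, Sox17 at 3.71 ± 0.220, Vwf at 2.47 ± 0.251 and Kdr at 1.66 ± 0.255 FPKM. In this order, the libraries of Emcn and Cdh5 overlapped, as did those of each neighbouring pair from Pecam1 to Tek. The libraries of the other neighbouring pairs did not overlap.

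**Figure D1:**
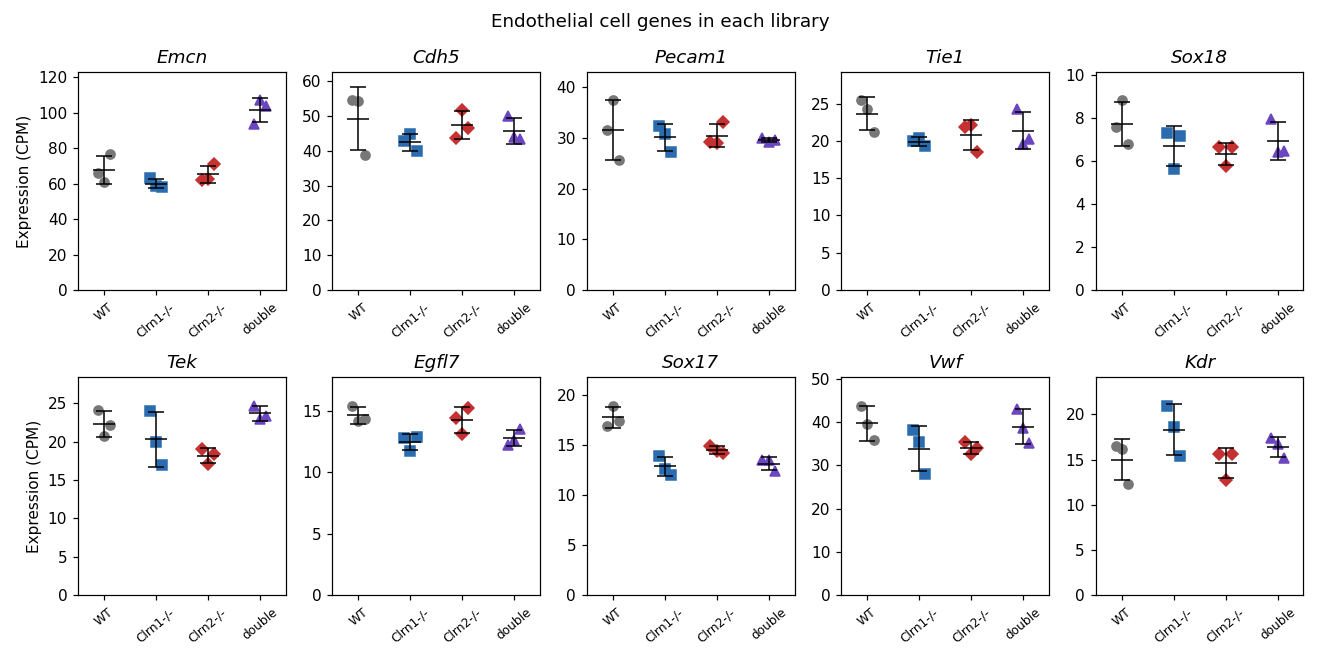
Level of each of the 10 endothelial genes (CPM, vertical axis from 0, a scale of its own in each panel) in the 12 libraries, grouped by genotype on the horizontal axis. Points are libraries, and bars are the mean ± SD of 3 libraries. Emcn stands apart in the double mutants, at 93.7 to 107.0 CPM against 60.9 to 76.5 in wild-type, and Sox17 is below wild-type in every mutant library.

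Emcn differed from wild-type most of the 10 genes, and it did so in the double mutants. The 3 wild-type libraries held 66.1, 60.9 and 76.5 CPM of Emcn. In Clrn1-/- mice the libraries held 63.0, 58.6 and 58.3 CPM, and in Clrn2-/- mice they held 62.2, 62.5 and 70.9. The double mutants held 93.7, 107.0 and 103.7 CPM. All 3 double mutant libraries thus lay above the other 9, and the single mutants overlapped with wild-type. The mean was 67.8 ± 7.95 CPM in wild-type and 101 ± 6.90 in the double mutants, a log2 fold change of 0.58 with an SE of 0.08 and a 95% interval of 0.42 to 0.74 (adjusted p = 1.68e-05). At 1.50-fold the change fell just under the fold minimum, whose log2 value is 0.585. Emcn was called with library size alone (log2 fold change 0.62), without wild-type replicate 3 (0.67) and without double mutant replicate 1 (0.63), 3 of 21 alternatives. Its adjusted p stayed at or under the threshold in all 21.

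Against the single mutants, the difference in Emcn was larger. No wild-type mean enters these log2 fold changes, but wild-type libraries share in the normalization and in the spread behind the SE and adjusted p. Emcn was over-expressed in Clrn1-/-Clrn2-/- mice relative to Clrn1-/- mice, with a log2 fold change of 0.76 (SE 0.08, adjusted p = 2.16e-06). Relative to Clrn2-/- mice it was over-expressed with a log2 fold change of 0.64 (SE 0.08, adjusted p = 1.89e-05). Emcn was the 1 gene of the 10 called in each of these comparisons, in which 4.62% and 3.67% of all genes were called over-expressed. Both calls held in all 21 alternatives. The interaction, which is the log2 change of the double mutants minus the sum of those of the single mutants, was 0.82 for Emcn (SE 0.11, adjusted p = 0.000105) and was called in all 20 alternatives. Emcn was again the 1 gene of the 10 called, against 3.58% of all genes in this direction.

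Emcn lies on chromosome 3 from 137341067 to 137432185 (GRCm38, Gencode M21), 78.5 Mb from Clrn1 on the same chromosome. Of 46 annotated genes within 1 Mb of Emcn, 12 were tested and 1 was over-expressed in the double mutants, where 5.88% of all genes were. This was Ddit4l, an inhibitor of mTOR signalling 189427 bases away, which was singled out after its values were seen. Its level was 3.78 CPM in wild-type and 9.51 in the double mutants, a log2 fold change of 1.33 (SE 0.12, adjusted p = 5.19e-07). The other 11 neighbours ranged from a log2 fold change of -0.29 (Dnajb14) to 0.72 (Gm567, adjusted p = 0.244), and 0 were under-expressed at the fold minimum.

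The SOX F transcription factors were both at lower mean levels in every mutant, and only Sox17 passed the adjusted p. Sox17, which is known for its part in arterial identity, was at 16.9, 18.9 and 17.3 CPM in the wild-type libraries. It was at 13.9, 12.6 and 12.03 CPM in Clrn1-/-, 14.8, 14.4 and 14.1 in Clrn2-/- and 13.5, 13.5 and 12.4 in the double mutants. None of the 9 mutant libraries reached the lowest of wild-type. The log2 fold change was -0.47 in Clrn1-/- (SE 0.07, adjusted p = 0.000188), -0.29 in Clrn2-/- (SE 0.07, adjusted p = 0.0118) and -0.43 in the double mutants (SE 0.07, adjusted p = 0.000176), each under the fold minimum. In Clrn1-/- and in the double mutants, the adjusted p stayed at or under 0.05 in all 21 alternatives, and in Clrn2-/- mice in 19. The exceptions for Clrn2-/- mice were the fits without wild-type replicate 2 and without Clrn2-/- replicate 3, with an adjusted p of at most 0.0603. The interaction for Sox17 was 0.32 (SE 0.10, adjusted p = 0.0399), so that the double mutants were less low than the sum of the single mutants, and it passed in 7 of 20 alternatives.

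Sox18, which acts in vessel and lymphatic development, had the fewest counts of the 10 genes. Its libraries were at 7.56, 8.82 and 6.78 CPM in wild-type, 7.31, 5.64 and 7.17 in Clrn1-/-, 6.64, 5.75 and 6.63 in Clrn2-/- and 7.97, 6.42 and 6.45 in the double mutants. The Clrn2-/- libraries lay below those of wild-type, and those of the other mutants overlapped with them. The log2 fold changes were -0.20, -0.28 and -0.16 in the 3 mutants, with adjusted p of 0.259, 0.167 and 0.374. For Clrn2-/- mice the 95% interval ran from -0.55 to -0.01.

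Among the receptors, only Tek differed between mutants at the adjusted p. Tek was at 24.0, 20.7 and 22.2 CPM in wild-type libraries, 24.0, 19.9 and 16.9 in Clrn1-/-, 19.0, 17.1 and 18.4 in Clrn2-/- and 24.7, 22.9 and 23.3 in the double mutants. The Clrn2-/- libraries were below all of wild-type and all of the double mutants, and the Clrn1-/- libraries overlapped with each of the others. Relative to wild-type, the log2 fold change of Tek was -0.14 in Clrn1-/- (adjusted p = 0.321), -0.30 in Clrn2-/- (adjusted p = 0.0578) and 0.08 in the double mutants (adjusted p = 0.541). The double mutants exceeded Clrn2-/- mice by a log2 fold change of 0.38 (SE 0.10, adjusted p = 0.00952), under the fold minimum and at or under the adjusted p of 0.05 in all 21 alternatives. The interaction for Tek was 0.52 (SE 0.14, adjusted p = 0.0171). It passed the adjusted p in 18 of 20 alternatives, the exceptions being the fits without wild-type replicate 1 and without Clrn2-/- replicate 2 (highest adjusted p 0.0555), and it was called without Clrn1-/- replicate 1 (log2 difference 0.64).

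Tie1, the partner receptor of Tek, had a lower mean in each mutant than in wild-type. Its libraries were at 25.5, 24.4 and 21.2 CPM in wild-type, 20.0, 20.4 and 19.3 in Clrn1-/-, 21.8, 22.1 and 18.5 in Clrn2-/- and 24.3, 19.6 and 20.3 in the double mutants. Only the Clrn1-/- libraries lay wholly below wild-type, with a log2 fold change of -0.25 (SE 0.09, adjusted p = 0.0519). With the replicate number as a block over all 12 libraries, this adjusted p of Tie1 was 0.023, and it passed in 9 of 21 alternatives. Whether the replicate numbers pair libraries is not known. The log2 fold change was -0.18 in Clrn2-/- (adjusted p = 0.2) and -0.15 in the double mutants (adjusted p = 0.225).

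Kdr, the receptor of vascular endothelial growth factor, was the only one of the 10 genes with a higher mean in Clrn1-/- mice. Its libraries were at 16.5, 16.1 and 12.3 CPM in wild-type, 21.0, 18.6 and 15.4 in Clrn1-/-, 15.6, 12.7 and 15.6 in Clrn2-/- and 17.3, 16.7 and 15.2 in the double mutants. Every mutant overlapped with wild-type, in which replicate 3 stood low, and Clrn1-/- was above wild-type in 3 of 3 pairs of the same replicate number. The log2 fold change was 0.29 in Clrn1-/- mice, with a 95% interval of 0.03 to 0.54 (adjusted p = 0.0938), -0.03 in Clrn2-/- (adjusted p = 0.9) and 0.13 in the double mutants (adjusted p = 0.447). With the replicate number as a block, the adjusted p of Kdr in Clrn1-/- mice was 0.0463, and it passed in 3 of 21 alternatives, with a highest value of 0.337.

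The junction genes Cdh5 and Pecam1 overlapped with wild-type in every mutant. Cdh5 was at 54.5, 54.3 and 38.7 CPM in the wild-type libraries, a spread that held all mutant libraries, which ran from 39.9 to 51.8 CPM. Its log2 fold changes were -0.21, -0.05 and -0.10 in Clrn1-/- and Clrn2-/- mice and in the double mutants (adjusted p = 0.162, 0.794 and 0.484). Pecam1 was at 31.6, 37.4 and 25.6 CPM in wild-type, again lowest in replicate 3, with means of 30.2 ± 2.64, 30.4 ± 2.29 and 29.6 ± 0.456 in the mutants. Its log2 fold changes were -0.06, -0.05 and -0.09, and the 95% intervals of Pecam1 lay between -0.31 and 0.17 in all 3 comparisons.

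Of the genes for secreted proteins, Egfl7 passed the adjusted p in Clrn1-/- mice and Vwf passed it in none of the mutants. Egfl7, which encodes an endothelial matrix protein and is the host gene of miR-126, was at 15.5, 14.2 and 14.3 CPM in wild-type libraries. It was at 12.8, 11.7 and 12.9 CPM in Clrn1-/-, 14.4, 13.1 and 15.2 in Clrn2-/- and 12.3, 12.7 and 13.5 in the double mutants. The Clrn1-/- and the double mutant libraries lay below wild-type, and the Clrn2-/- libraries overlapped. The log2 fold change was -0.24 in Clrn1-/- (SE 0.07, adjusted p = 0.0287), -0.04 in Clrn2-/- (adjusted p = 0.793) and -0.19 in the double mutants (SE 0.07, adjusted p = 0.0543). The first was past the adjusted p in 17 of 21 alternatives and lost it with library size alone, without wild-type replicate 1, and without Clrn1-/- replicate 1 or 2, with an adjusted p of at most 0.127. Exons of Egfl7 share bases with Gm20532 and Mir126a on the same strand, so that its counts are less certain than those of the other genes.

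Vwf, which encodes the carrier protein that endothelial cells store for platelet adhesion, was at 43.8, 39.6 and 35.8 CPM in wild-type libraries. It was at 38.2, 35.4 and 28.1 CPM in Clrn1-/-, 35.3, 32.7 and 34.1 in Clrn2-/- and 43.1, 38.6 and 35.1 in the double mutants. The Clrn2-/- libraries lay just below the lowest of wild-type, and the others overlapped. The log2 fold changes were -0.23, -0.22 and -0.03, with adjusted p of 0.103, 0.163 and 0.853. With the replicate number as a block, the adjusted p of Vwf in Clrn1-/- mice was 0.0182, and it passed in 4 of 21 alternatives, with a highest value of 0.433.

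**Figure D2:**
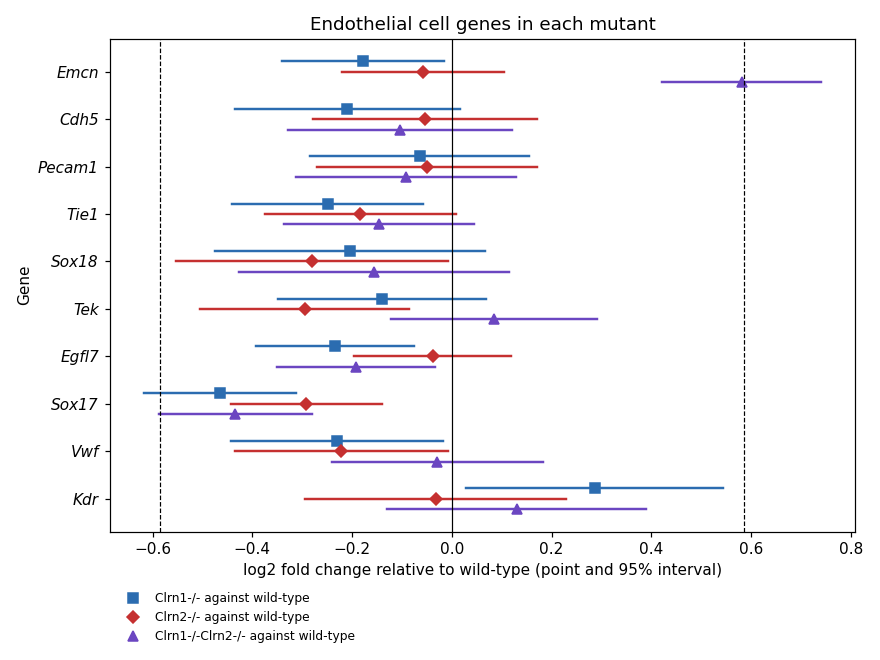
Log2 fold change of each endothelial gene relative to wild-type in Clrn1-/- and Clrn2-/- mice and in the double mutants, with 95% intervals from the edgeR fit over 12 libraries. Dashed lines mark 1.5-fold in either direction. The value of Emcn in the double mutants (0.58) lies just under the line, which its interval crosses, and Sox17 (-0.47, -0.29 and -0.43) is the only gene whose interval lies below 0 and whose adjusted p is at most 0.05 in all 3 mutants.

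Counted together, 0 of the 10 genes were called in Clrn1-/- or Clrn2-/- mice or in the double mutants relative to wild-type, where 7.22%, 2.66% and 9.90% of all genes were called by edgeR. Limma-voom and DESeq2 called 0 of the 10 as well. At an unadjusted p under 0.05, edgeR had 6, 4 and 3 of the 10, against 37.9%, 27.6% and 45.2% of all genes. By the adjusted p alone, 2 of 10 were lower in Clrn1-/- mice (Sox17 and Egfl7), 1 in Clrn2-/- mice (Sox17), and 1 was lower (Sox17) and 1 higher (Emcn) in the double mutants. Of all genes, 13.3%, 7.07% and 17.9% were lower and 13.6%, 7.14% and 19.1% higher by it. With the replicate number as a block, 5 passed in Clrn1-/- mice, of which Sox17, Tie1, Vwf and Egfl7 were lower and Kdr was higher. The shares of all genes above are from the fit without the block, and those with it are not given.

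The median log2 fold change of the 10 genes was -0.21 in Clrn1-/-, -0.12 in Clrn2-/- and -0.10 in the double mutants, and that of all genes was within 0.01 of 0 in each. The values were below 0 for 9, 10 and 7 of the 10 genes. The libraries lay wholly below wild-type for 3 genes in Clrn1-/-, 4 in Clrn2-/- and 2 in the double mutants, where 19.8%, 14.4% and 23.2% of all genes did so. They lay wholly above for 0, 0 and 1, where 20.5%, 14.6% and 25.0% of all genes did so. The 95% interval lay inside 1.5-fold in both directions for 9, 10 and 8 of the 10 genes.

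Wild-type replicate 3 had the lowest wild-type value in 6 of the 10 genes and the highest for Emcn. Without it, 5 genes passed the adjusted p in Clrn1-/- mice (Sox17, Cdh5, Tie1, Vwf and Egfl7, all lower), 1 in Clrn2-/- mice and 4 in the double mutants (Sox17, Pecam1 and Cdh5 lower, Emcn higher). The median log2 fold changes were then -0.27, -0.23 and -0.23. In the double mutants the median was -0.06 without wild-type replicate 1 and with library size alone, and -0.04 without wild-type replicate 2. Without wild-type replicate 1 or Clrn1-/- replicate 2, 1 gene passed in Clrn1-/- mice. Without wild-type replicate 2 or Clrn2-/- replicate 3, 0 passed in Clrn2-/- mice, and without Clrn1-/- replicate 1 or 3, 2 passed there (Sox17 and Tek). The share of all genes past the adjusted p in these fits is not given, so these counts have no background beside them.

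Between Clrn1-/- and Clrn2-/- mice, 0 of the 10 genes were called and 0 passed the adjusted p in edgeR, against 4.73% and 18.5% of all genes. At an unadjusted p under 0.05 there were 3, namely Sox17 and Egfl7, lower in Clrn1-/- mice, and Kdr, higher, against 32.1% of all genes. Limma-voom and DESeq2 called 0 as well. Between the double mutants and Clrn2-/- mice, 2 of the 10 were higher by the adjusted p alone, Emcn and Tek, against 14.4% of all genes. For the interaction, 3 of the 10 passed it, Sox17, Tek and Emcn, all above 0, against 9.32% of all genes.

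The summed level of the 10 genes was 271 to 302 CPM in wild-type, 237 to 275 in Clrn1-/- mutants, 261 to 273 in Clrn2-/- and 303 to 317 in the double mutants. The sum of the double mutants rested on Emcn. Without Emcn, the sum of the other 9 genes was 194 to 236 CPM in wild-type and 199 to 223 in the double mutants, and it was 179 to 212 in Clrn1-/- and 199 to 202 in Clrn2-/- mice. All of the mutant ranges then overlapped with that of wild-type.

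**Figure D3:**
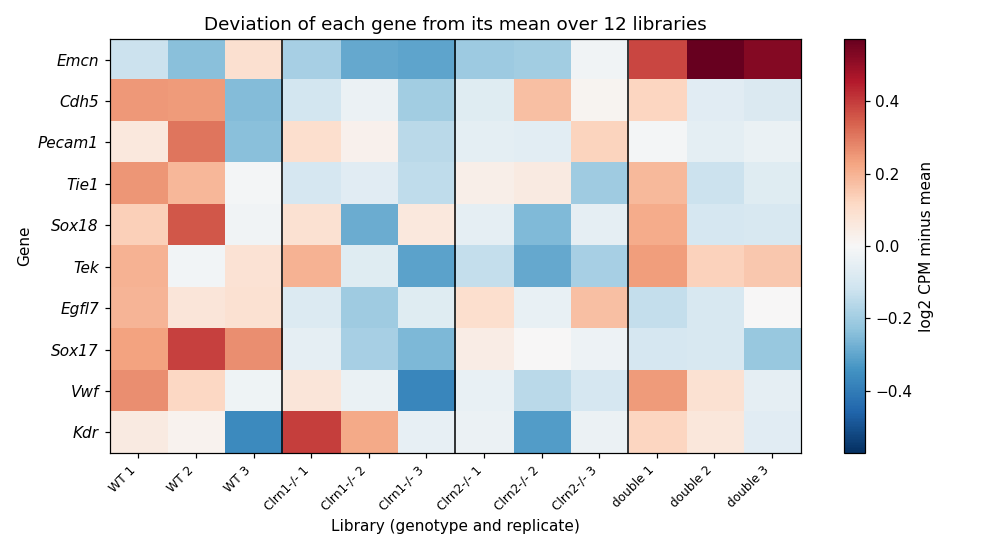
Level of the 10 endothelial genes (rows) in the 12 libraries (columns), as log2 CPM minus the mean of the gene over all libraries. Emcn is farthest above its mean in the 3 double mutant libraries, by 0.38 to 0.57, and 9 of 10 genes are above their mean in wild-type replicate 1 and 1 of 10 in Clrn1-/- replicate 3.

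The 10 genes moved together across libraries only in part. Pearson's r of log2 CPM over the 12 libraries, which share genotypes, ranged from -0.39 to 0.82 over the 45 pairs, with a median of 0.33, and 34 pairs were above 0. Tek and Vwf had the highest r at 0.82, and Cdh5 and Tie1 were at 0.74. With the genotype means taken out, the median was 0.27 and the range was -0.83 to 0.87, with Kdr and Vwf at the top and Emcn and Tie1 at the bottom. The library lowest in Tie1 was the highest in Emcn in 3 of the 4 genotypes, whereas in Clrn1-/- mice replicate 3 was lowest in both. The r of Emcn with the mean of the other 9 genes was 0.02 over the 12 libraries. For Vwf this value was 0.90, for Tek 0.67, for Tie1 0.59 and for Sox18 0.58. For Cdh5 it was 0.49, for Pecam1 0.47, for Sox17 0.38, for Egfl7 0.16 and for Kdr 0.15.

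The mean of the 10 centred log2 levels gave a profile of 0.15, 0.14 and -0.04 in the wild-type libraries. It was 0.03, -0.09 and -0.18 in Clrn1-/-, -0.04, -0.11 and -0.03 in Clrn2-/- and 0.13, 0.03 and 0.01 in the double mutants. Among 15396 other genes averaging 1 CPM or more, the 10 most like this profile over the 12 libraries were Scpep1 (r = 0.90), Pld2 (0.89), Klf12 (0.89), Tpcn1 (0.89), Myct1 (0.89), Clec1a (0.87), Galnt6 (0.87), Fbxl17 (0.87), Dock6 (0.86) and Pear1 (0.86). One of them, Myct1, stands in the list of other endothelial genes below.

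Among other endothelial genes, few were called. Of 37 genes outside the first 10, 36 were tested and Gpihbp1 was not, with at most 0.275 CPM in a library. In Clrn1-/- mice 2 rose and 1 fell, in Clrn2-/- mice 0 were called, and in the double mutants 1 rose, where 3.52%, 1.24% and 5.88% of all genes rose and 3.70%, 1.42% and 4.02% fell. By the adjusted p alone, 13.6%, 7.14% and 19.1% of all genes were higher and 13.3%, 7.07% and 17.9% lower. By it, 4 of the 36 were higher and 9 lower in Clrn1-/-, 2 and 9 in Clrn2-/-, and 2 and 3 in the double mutants. The median log2 fold change was -0.16, -0.16 and -0.07, and the summed level was 920 to 1036 CPM in wild-type, 872 to 948 in Clrn1-/- mutants, 864 to 879 in Clrn2-/- and 935 to 970 in the double mutants.

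In Clrn1-/- mice, Tspan18, a tetraspanin, rose from 6.02 to 10.1 CPM with a log2 fold change of 0.75 (SE 0.10, adjusted p = 4.05e-05). Plvap, the protein of the diaphragms of fenestrated capillaries, rose with a log2 fold change of 0.59 (SE 0.14, adjusted p = 0.00601). Icam2, an adhesion molecule for leukocytes, fell from 3.27 to 2.13 CPM, with a log2 fold change of -0.62 (SE 0.15, adjusted p = 0.00652). In the double mutants, Mfsd2a, the lipid transporter of tight barrier endothelium, rose from 36.3 to 54.5 CPM with a log2 fold change of 0.59 (SE 0.05, adjusted p = 2.78e-07).

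The ligands of the VEGF and angiopoietin receptors were listed with their partners, 18 genes in all, and all were tested. In Clrn1-/- mice 1 rose, in Clrn2-/- mice 0 were called and in the double mutants 2 fell, with median log2 fold changes of -0.19, -0.14 and -0.13. By the adjusted p alone, 1 was higher and 3 lower in Clrn1-/-, 2 and 3 in Clrn2-/-, and 1 and 6 in double mutants. Of all genes, 3.52%, 1.24% and 5.88% were called over-expressed and 3.70%, 1.42% and 4.02% under-expressed. By the adjusted p alone, 13.6%, 7.14% and 19.1% of all genes were higher and 13.3%, 7.07% and 17.9% lower. Pgf, a ligand of the receptor Flt1, fell in the double mutants from 21.9 ± 0.676 to 13.6 ± 0.513 CPM, with a log2 fold change of -0.68 (SE 0.07, adjusted p = 1.07e-06). Apln fell there as well, with a log2 fold change of -0.63 (adjusted p = 0.0466) and libraries that overlapped with wild-type. Aplnr, the receptor of apelin, rose in Clrn1-/- mice with a log2 fold change of 0.64 (adjusted p = 0.0236). Vegfb, chosen after its values were seen, was at 91.1 ± 2.56 CPM in wild-type and 63.8 ± 3.90, 62.5 ± 5.70 and 62.8 ± 4.06 in Clrn1-/- and Clrn2-/- mice and in the double mutants, with all mutant libraries below wild-type and no change reaching the fold minimum (adjusted p = 3.13e-05, 5.59e-05 and 8.03e-06).

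Of 16 genes that mark arteries or veins, 15 were tested and Selp was not. In Clrn1-/- mice 1 rose and 1 fell, in Clrn2-/- mice 0 were called and in the double mutants 2 fell, with median log2 fold changes of -0.04, -0.02 and 0.12. Of all genes, 3.52%, 1.24% and 5.88% were called over-expressed and 3.70%, 1.42% and 4.02% under-expressed. By the adjusted p alone, 13.6%, 7.14% and 19.1% of all genes were higher and 13.3%, 7.07% and 17.9% lower. By it, 2 of the 15 were higher and 2 lower in Clrn1-/-, 1 and 1 in Clrn2-/-, and 4 and 2 in double mutants. The 4 genes higher there were the Notch ligand gene Jag1 (log2 fold change 0.58, adjusted p = 1.75e-05), Nr2f2, a factor of venous identity (0.46, adjusted p = 0.00016), Ephb4, a venous ephrin receptor (0.34, adjusted p = 7.89e-05) and Hey1, a Notch target (0.33, adjusted p = 0.000245), all under the fold minimum and named after their values were seen. Ackr1, the chemokine receptor of venules, was at 28.7 ± 1.50 CPM in wild-type, 17.8 ± 0.591 in Clrn1-/- mutants, 23.0 ± 1.98 in Clrn2-/- and 16.9 ± 0.533 in the double mutants. All mutant libraries were below those of wild-type. Ackr1 fell in Clrn1-/- mice with a log2 fold change of -0.69 (SE 0.07, adjusted p = 2.4e-06) and in the double mutants with -0.76 (SE 0.07, adjusted p = 3.27e-07), while the value of -0.32 in Clrn2-/- mice (adjusted p = 0.00412) was under the fold minimum. Gja5, an arterial connexin, rose in Clrn1-/- mice from 0.610 to 1.18 CPM (log2 fold change 0.95, adjusted p = 0.0288). Slc38a5 fell in the double mutants (log2 fold change -0.89, adjusted p = 0.0126) with libraries that overlapped with wild-type.

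**Figure D4:**
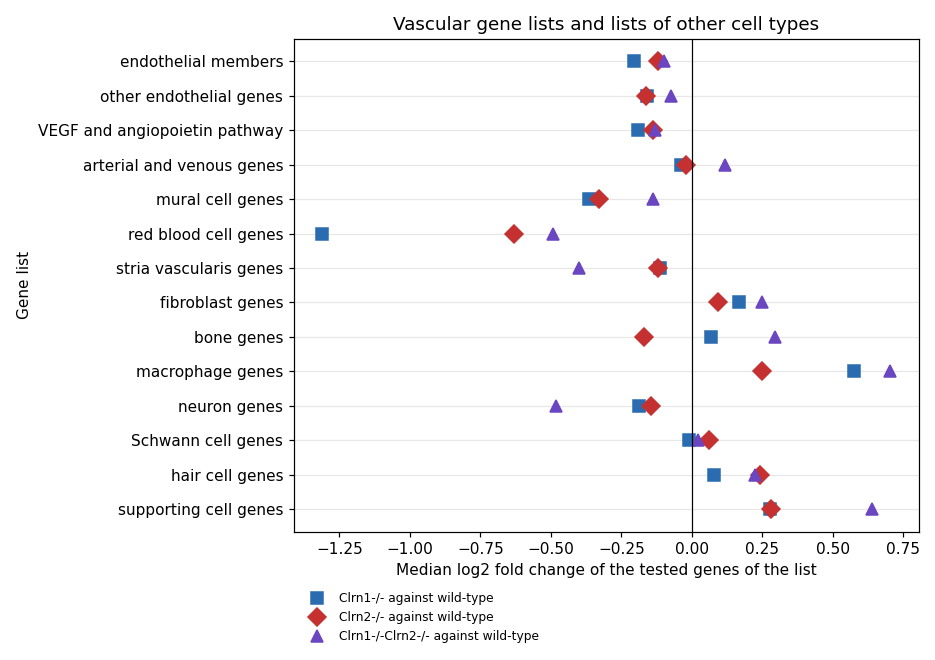
Median log2 fold change relative to wild-type of each gene list, with the 10 endothelial genes beside 13 other lists, in Clrn1-/- and Clrn2-/- mice and in the double mutants. The endothelial genes lie at -0.21, -0.12 and -0.10, between the mural cell genes at -0.37, -0.33 and -0.14 and 0, whereas the red blood cell genes lie at -1.31, -0.63 and -0.49.

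Genes of mural cells, the pericytes and smooth muscle cells around vessels, had median log2 fold changes of -0.37, -0.33 and -0.14, against -0.21, -0.12 and -0.10 for the endothelial genes, a difference between lists that was not tested. Of 14 genes, all tested, 1 fell in Clrn1-/- mice, 2 fell in Clrn2-/- mice and 0 were called in the double mutants. By the adjusted p alone, 9, 7 and 4 were lower and 0, 0 and 1 higher. Of all genes, 13.3%, 7.07% and 17.9% were lower by it and 13.6%, 7.14% and 19.1% higher, and 3.70%, 1.42% and 4.02% were called under-expressed. In Clrn2-/- mice the smooth muscle genes Acta2 (log2 fold change -0.60, adjusted p = 0.00439) and Myh11 (-0.67, adjusted p = 0.00111) fell, and in Clrn1-/- mice Cnn1 fell (-1.08, adjusted p = 0.0378). The summed level was 434 to 529 CPM in wild-type, 407 to 463 in Clrn1-/- mutants, 373 to 405 in Clrn2-/- and 456 to 478 in the double mutants.

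Red blood cell genes, whose RNA comes with the blood in vessels, had median log2 fold changes of -1.31, -0.63 and -0.49, farther from 0 than the medians of the vessel lists, a difference that was not tested. Of 9 genes, 7 fell in Clrn1-/-, 5 in Clrn2-/- and 2 in the double mutants, where 3.70%, 1.42% and 4.02% of all genes fell. All 9 were below 0 in each. The summed level was 767 to 1228 CPM in wild-type, 332 to 440 in Clrn1-/- mutants, 489 to 722 in Clrn2-/- and 599 to 795 in the double mutants. In Clrn1-/- mice Hba-a2 (log2 fold change -2.14, adjusted p = 1.95e-06), Alas2, the enzyme of erythroid haem synthesis (-1.65, adjusted p = 4.63e-06) and Hba-a1 (-1.43, adjusted p = 2.57e-05) fell most, and in Clrn2-/- mice Hba-a2 (-1.42), Alas2 (-0.76) and Hba-a1 (-0.73). In the double mutants Hba-a2 (-0.70) and Hba-a1 (-0.63) fell. Hba-a1 and Hba-a2 are nearly identical copies, so the division of counts between them is uncertain. The part of residual blood or of the amount of vessel in the dissected tissue in the values of the endothelial genes was not tested.

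Over the 12 libraries, which share genotypes and dissections, the profile of the 10 endothelial genes had an r of 0.91 with that of the other endothelial genes, 0.89 with the mural cell genes and 0.72 with the red blood cell genes. With genotype means taken out, these values were 0.87, 0.80 and 0.49. The profile had an r of 0.68 with the arterial and venous genes and 0.54 with the VEGF and angiopoietin genes. For tissues that border the organ of Corti, r was 0.48 with fibroblast genes, 0.48 with bone genes and -0.03 with stria vascularis genes. It was -0.02 with macrophage genes, -0.11 with neuron genes, -0.18 with Schwann cell genes, -0.08 with hair cell genes and -0.11 with supporting cell genes. With genotype means taken out, r was 0.70 with arterial and venous, 0.63 with VEGF and angiopoietin and 0.66 with fibroblast genes. It was then 0.60 with bone genes, 0.60 with macrophage genes and 0.28 with stria vascularis genes. For neuron, Schwann cell, hair cell and supporting cell genes it was -0.25, -0.09, -0.32 and -0.34.

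**Figure D5:**
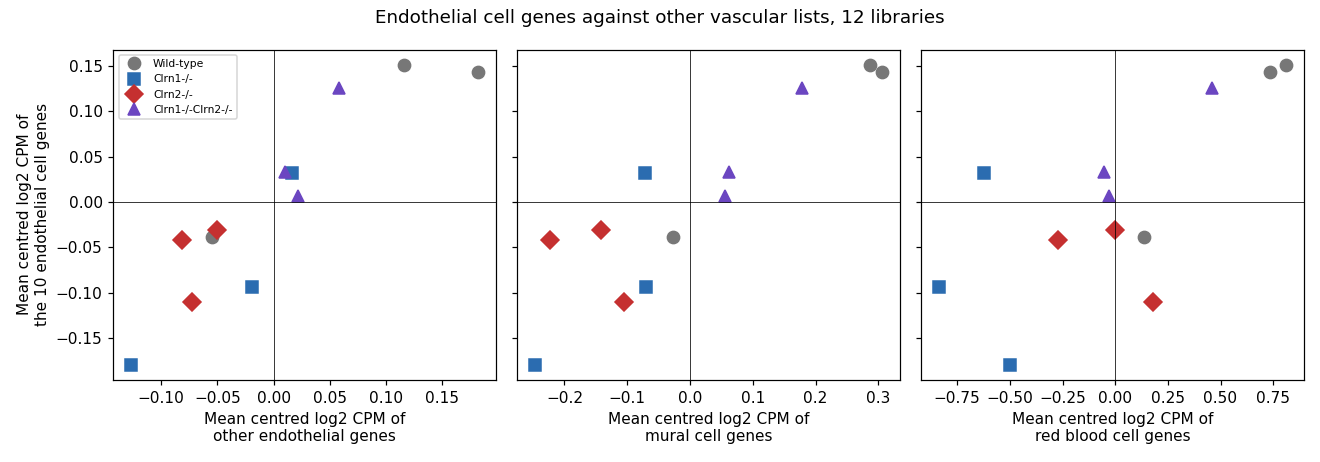
Mean centred log2 CPM of the 10 endothelial genes (vertical axis) against that of the other endothelial genes, the mural cell genes and the red blood cell genes (horizontal axes), each point being 1 of the 12 libraries, coloured by genotype. Wild-type replicates 1 and 2 lie at the upper end (0.15 and 0.14) and Clrn1-/- replicate 3 at the lower end (-0.18), with r of 0.91, 0.89 and 0.72.

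Markers of the neighbouring tissues were present in all genotypes, and every gene listed for them was tested. Stria vascularis genes summed to 979 to 1268 CPM in wild-type, 1048 to 1180 in Clrn1-/- mutants, 1016 to 1123 in Clrn2-/- and 1150 to 1211 in the double mutants. Most of this sum was Slc12a2, Cldn11 and Kcnj10, at 444, 281 and 218 CPM in wild-type, which other cochlear cells also express. Of the other genes on this list, Lrp2, Dct and Esrrb were at 93.4, 39.1 and 21.9 CPM in wild-type. Kcnq1, Kcne1 and Tyr were at 8.64, 8.44 and 2.11 CPM, and Pmel, Tyrp1 and Mlana were at 3.31, 0.707 and 0.616 CPM. Atp13a5 lay between Esrrb and Kcnq1. In the 3 mutants, 2, 1 and 3 of these 13 genes rose and 0, 0 and 3 fell. Of all genes, 3.52%, 1.24% and 5.88% rose and 3.70%, 1.42% and 4.02% fell. Of 9 macrophage genes, 3, 1 and 6 rose and 0 fell. Of 11 fibroblast genes 2, 0 and 3 rose and 2, 2 and 1 fell, and of 7 bone genes 1, 0 and 1 rose and 0 fell. Of 10 supporting cell genes 1, 2 and 5 rose and 0, 0 and 1 fell, and of 10 hair cell genes 1, 3 and 2 rose and 2, 0 and 1 fell. Of 10 neuron genes 0, 1 and 1 rose and 0, 0 and 3 fell, and of 8 Schwann cell genes 0 were called in any mutant, with 4, 0 and 4 past the adjusted p alone. By the adjusted p alone, 13.6%, 7.14% and 19.1% of all genes were higher and 13.3%, 7.07% and 17.9% lower. The part of these cell types in the values of the endothelial genes was not tested.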

How the data were processed

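The 12 libraries, 3 per genotype at postnatal day 21, were grouped by their genotype labels. They held poly-A RNA of organs of Corti, prepared with strand kept and read in pairs of 100 bases. The deposited values are raw read counts per gene, which the authors made with STAR on GRCm38 with Gencode M24, and the processing notes also name DESeq2 and GRCm38.p6. The column in the orientation of the kit was used (95.2% to 95.6% of the stranded counts). Totals not assigned to a gene, 13.5% to 15.8%, were left out.

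Tests ran on edgeR 4.0.16 in R 4.3.3 (filterByExpr, minimum count 10; TMM; quasi-likelihood test on 12 libraries; Benjamini-Hochberg adjustment over 19052 genes), checked on simulated counts. FPKM used exon lengths of Gencode M21. Depth was 30008679 to 41049302 counts per library. Alternatives were limma-voom (limma 3.58.1), DESeq2 1.42.0, other scalings, filters and strand, the compared genotypes alone, no fold minimum, the replicate number as a block, and each library left out. Same-numbered libraries correlated above 0.1 in 7 of 18 pairs (range -0.277 to 0.301), and in every pair only for wild-type and Clrn1-/-. Those 3 values, 0.269, 0.126 and 0.105, lie inside the range of all pairs. The sources do not say what the numbers mean, so whether they pair libraries is not known.

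The members and lists were chosen with earlier results of these data known. Genes named are the 10 members, up to 3 called genes per direction of each vascular or blood list, and the 10 most like the members' mean profile. For the lists of other cell types, counts are given in place of names, apart from wild-type levels of the stria vascularis genes. Outside this rule, Vegfb, Jag1, Nr2f2, Ephb4, Hey1 and neighbours of Emcn were named after their values were seen. Clrn1 and Clrn2 were named as a check of the labels, and Gpihbp1 and Selp as not tested. The promoters are from RefSeq.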

Additional observations from a re-analysis of the deposited data

Results flagged for a closer look

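The effect of losing both clarins differed from the sum of the single losses for 3 of the 10 endothelial genes, by the adjusted p of the interaction term of the edgeR fit alone, where 9.32% of all genes passed in this direction. With the fold minimum, only Emcn was called. The log2 difference was 0.82 for Emcn (adjusted p = 0.000105), whose 3 double mutant libraries were all above the 9 others, and it was called in all 20 alternatives. It was 0.52 for Tek (adjusted p = 0.0171), which was lower than wild-type in 3 of 3 Clrn2-/- libraries and overlapped with wild-type in the double mutants, and it passed in 18 of 20. It was 0.32 for Sox17 (adjusted p = 0.0399), which was lower than wild-type in 9 of 9 mutant libraries, but it passed in only 7 of 20 alternatives, with a highest adjusted p of 0.119. All 3 differences take the same wild-type libraries as reference, and breeding and genotype cannot be told apart in them.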

How the results depend on the processing

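With no fold minimum, the genes called numbered 5130, 2707 and 7047 in the Clrn1-/-, Clrn2-/- and double mutants against wild-type, 3523 for Clrn1-/- against Clrn2-/-, 5783 and 5258 for the double mutants against Clrn1-/- and Clrn2-/-, and 3311 for the interaction, in place of 1375, 507, 1886, 902, 1378, 972 and 1048. The endothelial genes called were then 2, 1 and 2 of 10 against wild-type, 2 for the double mutants against Clrn2-/- and 3 for the interaction. With library size alone, 1 endothelial gene (Emcn) was called in the double mutants. With each library left out in turn, 0 to 1 endothelial genes were called there and 1 to 2 for the interaction, the second being Tek without Clrn1-/- replicate 1. By the adjusted p alone, 7 endothelial genes passed in Clrn1-/- and 3 in Clrn2-/- mice with no filter on low counts, 1 in Clrn1-/- mice with library size alone, and 2 in Clrn2-/- mice (Sox17 and Tek) with DESeq2, the FPKM filter or the compared genotypes alone. The share of all genes past the adjusted p under these settings is not given, so these counts have no background beside them. The number of genes called stayed within 1.5 times under all alternatives but the fold minimum.

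With the replicate number as a block, 1391, 490, 1890, 906, 1380, 927 and 1034 genes and 0, 0, 0, 0, 1, 1 and 1 endothelial genes were called, so that the block changed no call of them, though 5, 3 and 3 passed the adjusted p alone against wild-type. The share of all genes past the adjusted p with the block is not given. Whether the replicate numbers pair libraries is not known, so the blocked values are an alternative only.

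Of 753 recomputed log2 fold changes of the 10 genes, 732 kept direction and call, 4 became called and 17 changed sign, all near 0 and uncalled. With library size alone, that of Vwf in the double mutants was 0.012. With each library left out in turn, Pecam1 ranged from -0.197 to 0.079 in Clrn1-/- mice, from -0.181 to 0.095 in Clrn2-/- mice and from -0.234 to 0.042 in the double mutants. In Clrn2-/- mice Cdh5 ranged from -0.201 to 0.031, Kdr from -0.157 to 0.057, Emcn from -0.125 to 0.039 and Egfl7 from -0.079 to 0.019. In the double mutants Kdr ranged from -0.0069 to 0.197 and Vwf from -0.112 to 0.040. The cause was not tested. The lowest count behind a value was 188 (Sox18), and a spread among wild-type libraries of up to 18.7% (Pecam1) limits what 3 libraries per genotype can show.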
